A study of Homo sapiens with 8 samples.

Results

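The 45 genes described here belong to the integrated stress response driven by the transcription factor ATF4, together with the enzymes that charge transfer RNAs. They were taken by gene symbol, from a list drawn up with earlier results of these data known: 13 regulators and feedback genes, 6 enzymes of asparagine, serine and one-carbon synthesis, 6 amino acid transporters and 20 genes of cytosolic aminoacyl-tRNA synthetases, out of 58735 genes in the table. All 45 were found and all 45 passed the filter on low counts, which left 15790 genes to test. RNA was sequenced from SW480, a human colorectal adenocarcinoma line, in 4 libraries of cells with the vector control and 4 of cells with SPOCK1-flag, a tagged form of the secreted proteoglycan testican-1. One protocol text stands on the labels of all 8 libraries: lentiviral infection, then puromycin at 4 µg/ml until SPOCK1 protein was stably overexpressed. The labels do not say whether the cells of a group were a pool or a clone, or whether its 4 libraries came from separate cultures or infections. The p-values thus rest on the spread among these 8 libraries alone, part of which may be technical. Any other difference between the selected populations and the action of SPOCK1 cannot be told apart.

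In the integrated stress response, kinases that sense amino acid shortage, unfolded protein, double-stranded RNA or heme deficit phosphorylate the initiation factor eIF2. General translation then slows while the ATF4 messenger RNA is translated more, so ATF4 protein can rise without its messenger RNA. ATF4 pairs with C/EBP family factors on the C/EBP-ATF response element and drives genes for amino acid synthesis, amino acid import and tRNA charging, as well as DDIT3 (CHOP), TRIB3 and PPP1R15A, which shape or end the response. ATF6 and XBP1, the other branches of the unfolded protein response, drive endoplasmic reticulum chaperones through the endoplasmic reticulum stress element.

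The promoters of many of these genes carry the core of the C/EBP-ATF element. RefSeq promoter windows (GRCh38.p14, 250 bases before to 50 bases after an annotated start) were found for 38 of the 45 genes, and TGATGNAA, read on both strands, was present in 14 of them (36.8%), against 1217 of 27305 genes of the table (4.46%). It was present in 7 of 16 synthetase genes with a window and in 3 of 5 transporter genes, and in 9 of the 14 its letters were TGATGCAA. The stretches below run 5′ to 3′ on the strand of the gene, with the match in capitals. They are shown because ASNS, CEBPG and CHAC1 are standard targets of ATF4, SLC1A5 and SLC7A1 are transporters, and the other 7 are all the synthetases with a match. In 6 of those 7 the letters were TGATGCAA, mostly read in the opposite direction as TTGCATCA, and in GARS they were TTTCATCA, which is TGATGAAA in the opposite direction.
ASNS, chr7:97872458-97872487, minus strand: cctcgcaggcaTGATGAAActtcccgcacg
CEBPG, chr19:33374060-33374089, plus strand: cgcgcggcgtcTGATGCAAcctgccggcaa
CHAC1, chr15:40953251-40953280, plus strand: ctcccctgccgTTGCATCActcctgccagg
SLC1A5, chr19:46784893-46784922, minus strand: gaggaagtggcTGATGCAAgctgtccaggg
SLC7A1, chr13:29595663-29595692, minus strand: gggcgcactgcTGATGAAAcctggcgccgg
NARS, chr18:57621804-57621833, minus strand: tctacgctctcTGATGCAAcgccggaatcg
AARS, chr16:70289675-70289704, minus strand: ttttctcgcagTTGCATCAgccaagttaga
MARS, chr12:57488053-57488082, plus strand: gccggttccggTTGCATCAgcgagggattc
TARS, chr5:33440956-33440985, plus strand: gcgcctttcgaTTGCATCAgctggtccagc
IARS, chr9:92293692-92293721, minus strand: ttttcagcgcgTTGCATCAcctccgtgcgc
CARS, chr11:3057407-3057436, minus strand: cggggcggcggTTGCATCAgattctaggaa
GARS, chr7:30594834-30594863, plus strand: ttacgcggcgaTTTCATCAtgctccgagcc

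The match lay within 50 bases of the annotated start in 9 of the 14 genes, 6 of them synthetases. A match is a description of letters and not of factor binding, and a window without it says nothing about ATF4.

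The endoplasmic reticulum stress element was scarcer. Its letters, CCAAT, then 9 bases of any kind, then CCACG, were searched on both strands. This sequence was in 0 of the 38 windowed members and in 25 of 27305 genes (0.0916%). In a list of 19 genes of the ATF6 and XBP1 branches it was in 6, of which HSPA5, the BiP chaperone, and PDIA6, a protein disulfide isomerase, are shown for comparison. In a search added after the data had been seen, 1 of the 10 fixed letters was allowed to differ. A match was then present in 12 of the 19 genes of that list and in 517 of 27305 genes (1.89%). It was also in 3 of 14 mitochondrial synthetase genes, 3 of 14 other genes of serine, glycine, one-carbon and amide metabolism and 1 of 12 other amino acid transporters. Of the 38 windowed members 1 (2.63%) had a match, a share near that of all genes. That member was DDIT3, and its window held 2 overlapping near matches, 1 on each strand, of which the one on the strand of the gene is shown.
HSPA5, chr9:125241386-125241414, minus strand: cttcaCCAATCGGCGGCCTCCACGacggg
PDIA6, chr2:10812848-10812876, minus strand: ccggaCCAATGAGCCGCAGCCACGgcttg
DDIT3, chr12:57520591-57520619, minus strand: cggggCCAATGCCGGCGTGCCACTttctg

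The libraries held 35643585 to 42812951 counts. SPOCK1 had 0 to 6 counts in each control and 6719 to 9712 in each overexpressing library. Ribosomal RNA genes, those of the mitochondrial genome included, held 0.715% ± 0.017 of control counts and 0.612% ± 0.045 of counts with SPOCK1 (SD, n = 4 per group). The groups did not overlap in this difference (two-sided exact permutation p = 0.0286, the minimum for 4 against 4, and 0.114 adjusted over 4 measures). The part of this difference in the results that follow was not tested. Of 10 colorectal epithelial markers 7 reached 1 CPM (CPM, read counts scaled by library size), while KRT20, CDH17 and CDX1 were near 0. The list summed to 12938 to 15840 CPM in controls and 14519 to 16212 CPM with SPOCK1. KRT8, KRT18 and KRT19 made up most of this sum (means of 8287, 4518 and 1336 CPM in controls). Their means and that of EPCAM were higher with SPOCK1. Those of CDX2 (104 to 93.2 CPM), VIL1 (78.1 to 64.9 CPM) and CDH1 (17.8 to 11.2 CPM) were lower. Immune, endothelial and fibroblast lists each summed to at most 2.29 CPM in any library. Within both groups libraries 1 and 3 differed from libraries 2 and 4 in how log2 CPM followed the GC content of genes, so the main results are also given from each pair of libraries where that ended a call.

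Of the 45 genes, 3 rose with SPOCK1 and 0 fell (edgeR quasi-likelihood test, Benjamini-Hochberg adjusted p under 0.05 over all genes tested). Among all genes tested, 0.247% rose and 0.798% fell by the same rule. The 3 were FAM129A, DDIT3 and WARS. The groups of 4 libraries did not overlap in 9 of the 45 genes with SPOCK1 higher and in 1 with SPOCK1 lower, against 3.43% and 4.8% of all genes tested. The log2 fold change was above 0 in 31 of the 45 and ranged from -0.46 to 0.85, with a median of 0.04, where all genes tested had a median of -0.00. Genes with a mean of at least 50 CPM had a median of 0.03.

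**Figure D1:**
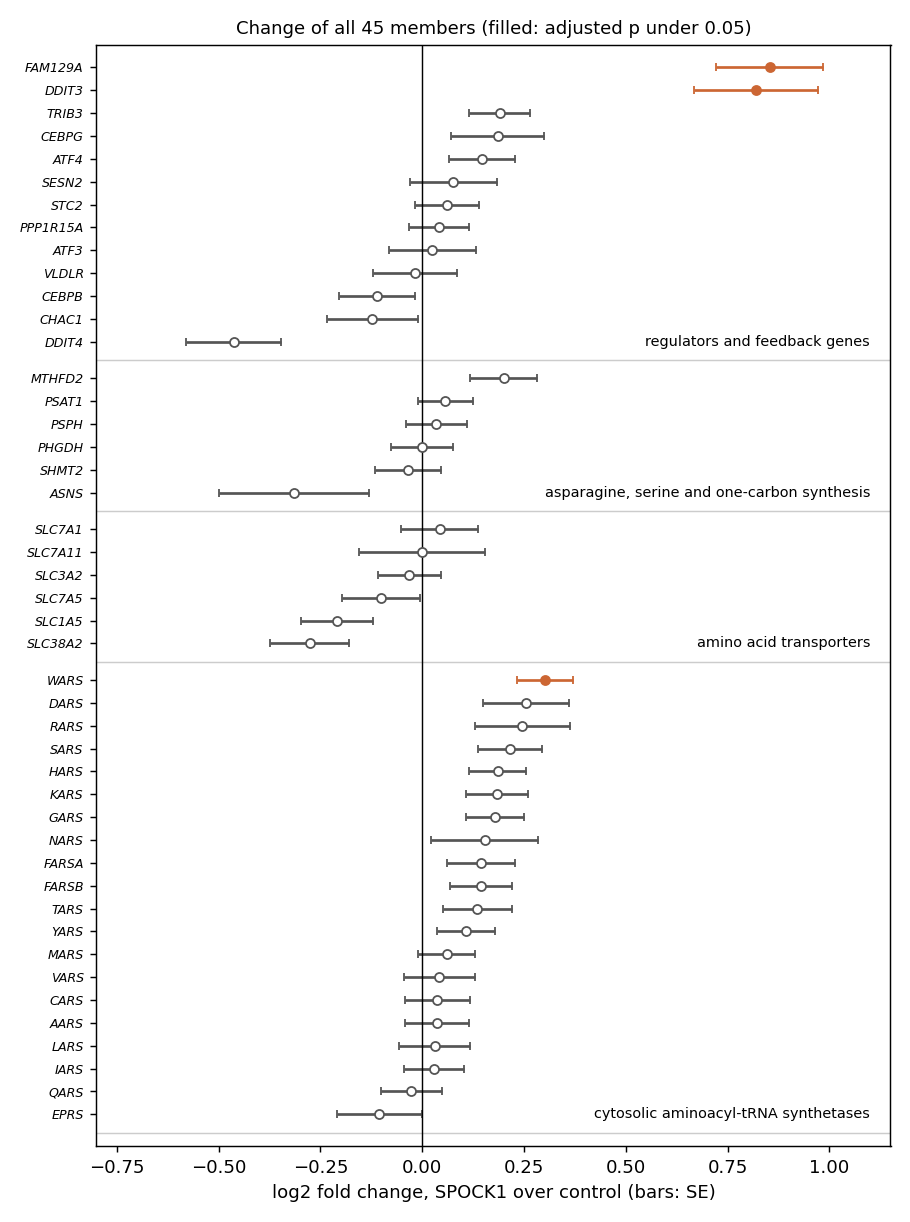
Log2 fold change of each of the 45 genes, SPOCK1 over control (x axis), with bars of 1 standard error from the edgeR fit on 4 libraries per group. Genes are ordered within their role, and filled points passed an adjusted p of 0.05: FAM129A, DDIT3 and WARS.

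ATF4 itself, the transcription factor at the head of the pathway (chromosome 22, 39519695 to 39522685, plus strand), did not pass the test. Controls 1 to 4 had 432, 454, 509.6 and 496 CPM, and SPOCK1 libraries 1 to 4 had 582, 522, 489 and 499 CPM. The groups overlapped, with SPOCK1 library 1 highest of all 8 and SPOCK1 libraries 3 and 4 within the range of the controls. The log2 fold change was 0.15 ± 0.08 (SE, adjusted p = 0.448, edgeR quasi-likelihood test). These counts measure messenger RNA only, and ATF4 protein was not analysed here.

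DDIT3, which encodes CHOP, a C/EBP family factor induced downstream of ATF4 and linked to cell death under lasting stress (chromosome 12, 57516588 to 57521737, minus strand), rose 1.77-fold. It had 5.80, 6.43, 8.65 and 8.24 CPM in controls 1 to 4, and 15.4, 12.3, 13.3 and 10.4 CPM in SPOCK1 libraries 1 to 4. Every SPOCK1 library lay above every control, and library 1 was lowest among the controls and highest with SPOCK1. The mean was 7.28 ± 1.38 CPM in controls and 12.9 ± 2.07 CPM with SPOCK1 (SD, n = 4 each), on counts of 222 to 338 and 365 to 576. The log2 fold change was 0.82 ± 0.15 (SE, adjusted p = 0.0112, edgeR quasi-likelihood test). The call ended when control 1 or control 2 was left out (adjusted p = 0.0522 and 0.0505). It also ended in libraries 1 and 3 alone (0.99, adjusted p = 0.224) and in libraries 2 and 4 alone (0.63, adjusted p = 0.0612). Of the exonic bases of DDIT3, 27.2% are shared with MARS and 4.44% with MBD6, both on the opposite strand, and 8.03% with AC022506.1 on the same strand, which had 0 counts in every library. The strand setting of the counting is not given in the sources used here. On the log2 scale MARS differed by 0.06 ± 0.07 (adjusted p = 0.757) and MBD6 by -0.14 ± 0.11 (adjusted p = 0.62).

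FAM129A, now called NIBAN1 and known as a stress-induced regulator of translation (chromosome 1, 184790724 to 184974550, minus strand), rose 1.81-fold. Its level was 9.25, 9.37, 8.52 and 7.61 CPM in controls 1 to 4, and 14.1, 15.1, 19.5 and 14.0 CPM in SPOCK1 libraries 1 to 4. The groups were far apart, with SPOCK1 library 3 the highest. The mean was 8.69 ± 0.812 CPM in controls and 15.7 ± 2.59 CPM with SPOCK1 (SD, n = 4 each), and the log2 fold change 0.85 ± 0.13 (SE, adjusted p = 0.00233, edgeR quasi-likelihood test). The call held in 17 of 18 alternative analyses and ended in libraries 1 and 3 alone (adjusted p = 0.222).

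DDIT4 (REDD1), an inhibitor of mTORC1 signalling, was the member with the lowest fold change. It had 21.5, 25.6, 26.0 and 25.3 CPM in controls 1 to 4, and 14.3, 17.6, 19.6 and 19.8 CPM in SPOCK1 libraries 1 to 4. All 4 SPOCK1 libraries lay below all 4 controls, although the gene did not pass the test (log2 fold change -0.46 ± 0.12, adjusted p = 0.0747, edgeR quasi-likelihood test). DESeq2 called it lower (adjusted p = 0.0140), as did the edgeR fit without a filter on low counts (0.0137). So did the edgeR fits with offsets on GC content and exonic length (0.0234), with a block for the replicate number (0.0420) and without SPOCK1 library 4 (0.0476). The other 13 of 18 alternative analyses did not call it. DDIT4-AS1 shares 41.2% of its exonic bases and was at 0 CPM.

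TRIB3, a pseudokinase that binds ATF4 and CHOP and restrains them, had 147, 162, 161 and 166 CPM in controls and 169, 179.7, 185 and 192 CPM with SPOCK1. Its groups did not overlap, by a small margin, and the log2 fold change of 0.19 ± 0.07 did not pass (adjusted p = 0.279, edgeR quasi-likelihood test). With offsets on GC content and length it was 0.26 ± 0.05 (adjusted p = 0.0106), and TRIB3 was not called in the other 17 of 18 alternative analyses. These offsets take out biological differences too where those track GC or length. With them, 4 members were higher (DDIT3, FAM129A, WARS and TRIB3) and 2 lower (DDIT4 and SLC38A2). Over all genes tested, 1.68% were then higher and 1.86% lower.

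The other 8 regulators did not pass the test, with log2 fold changes from -0.12 to 0.19 and adjusted p from 0.497 upwards. CEBPG, a partner of ATF4, had a log2 fold change of 0.19 ± 0.11, and CEBPB, another C/EBP factor, one of -0.11 ± 0.09. ATF3, an ATF/CREB family factor induced by many stresses, was at 0.03 ± 0.11. PPP1R15A (GADD34), which recruits the phosphatase that reverses eIF2 phosphorylation, was at 0.04 ± 0.07, with 81.1 to 84.0 CPM in controls and 81.4 to 89.9 CPM with SPOCK1. CHAC1, which degrades glutathione, was at -0.12 ± 0.11, and SESN2, a leucine sensor upstream of mTORC1, at 0.08 ± 0.11. STC2, a secreted glycoprotein, was at 0.06 ± 0.08, and VLDLR, a lipoprotein receptor, at -0.02 ± 0.10. ATF3, CHAC1 and PPP1R15A, which commonly accompany CHOP in this response, had overlapping groups in these libraries, whereas the groups of TRIB3 did not overlap.

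**Figure D2:**
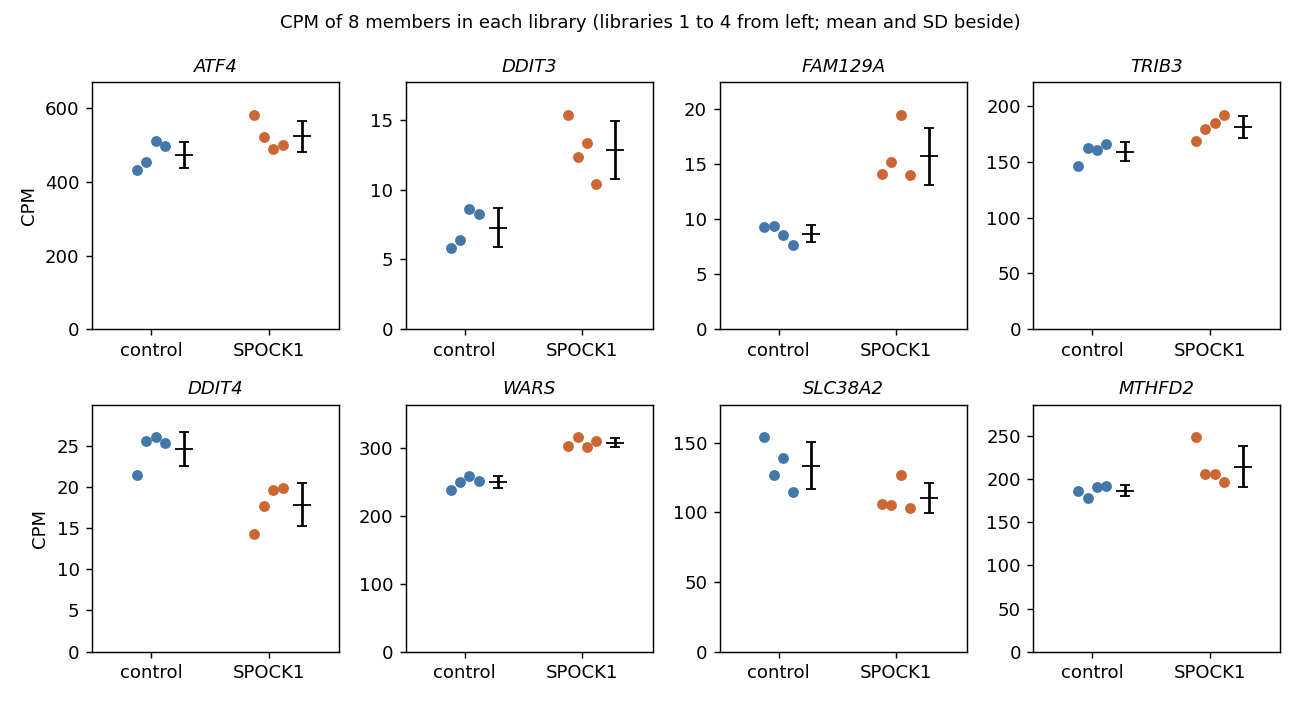
CPM of 8 of the genes in each of the 8 libraries (y axis), controls and SPOCK1 libraries as separate points, with the mean and SD of 4 libraries beside them. The SPOCK1 libraries of DDIT3, FAM129A, WARS, TRIB3 and MTHFD2 all lie above the controls and those of DDIT4 all below, while the groups of ATF4 and SLC38A2 overlap.

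None of the 6 synthesis enzymes passed the test, and the log2 fold change was above 0 in 3 of them, with a median of 0.02. MTHFD2, the mitochondrial one-carbon dehydrogenase that is strongly expressed in many tumours, had 187, 178, 190.5 and 191 CPM in controls and 249, 206, 206 and 196 CPM with SPOCK1. Its groups did not overlap, but SPOCK1 library 1 stood well above the other 3, and the log2 fold change was 0.20 ± 0.08 (adjusted p = 0.301, edgeR quasi-likelihood test), or 0.12 ± 0.07 without that library. In the serine pathway PHGDH, its first enzyme, had a log2 fold change of -0.00 ± 0.08, PSAT1, the second, 0.06 ± 0.07, and PSPH, the last, 0.03 ± 0.07. SHMT2, which splits serine to feed one-carbon units into mitochondria, was at -0.03 ± 0.08.

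ASNS, the asparagine synthetase and a standard reporter of ATF4 activity, had the fewest counts of the 45 genes. It had 124, 92, 138 and 149 counts in controls 1 to 4, or 3.24, 2.49, 3.72 and 3.63 CPM. SPOCK1 libraries 1 to 4 had 88, 93, 133 and 85 counts. The groups overlapped, and the log2 fold change of -0.31 ± 0.19 (adjusted p = 0.477, edgeR quasi-likelihood test) carries the largest standard error of the 45 genes. A gene on the same strand, AC079781.5, shares 44.6% of the exonic bases of ASNS and had 0.33 CPM in controls. How reads that match both were counted is not given in the sources used here.

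None of the 6 amino acid transporters passed, none had groups that did not overlap, and the median log2 fold change was -0.07. That median was -0.019 without SPOCK1 library 1 and -0.14 without SPOCK1 library 4, and -0.0047 with offsets on GC content and length. SLC38A2 (SNAT2), a sodium-coupled importer of small neutral amino acids, had 154, 127, 139 and 114 CPM in controls and 106, 106, 127 and 103 CPM with SPOCK1. Its log2 fold change was -0.28 ± 0.10 (adjusted p = 0.218), and SPOCK1 library 3 lay among the controls. With offsets on GC content and length the value was -0.29 ± 0.07 (adjusted p = 0.0308, edgeR quasi-likelihood test). In the other 17 of 18 alternative analyses SLC38A2 was not called. SLC1A5 (ASCT2), a glutamine importer, had 2203, 2292, 2041 and 2166 CPM in controls and 1656, 1843, 1803 and 2224 CPM with SPOCK1. Here library 4 alone of the SPOCK1 libraries reached the controls, and the log2 fold change was -0.21 ± 0.09 (adjusted p = 0.311). SLC7A5 (LAT1), the light chain of the exchanger that brings in large neutral amino acids, was at -0.10 ± 0.10, and SLC3A2, its heavy chain, at -0.03 ± 0.08. SLC7A1, an importer of cationic amino acids, was at 0.04 ± 0.09. SLC7A11, the cystine importer of the same family, was at -0.00 ± 0.15 on 8.80 to 13.2 CPM in controls.

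Among the 20 synthetase genes, WARS rose and no other passed in either direction. Their log2 fold changes lay above 0 in 18 of 20, with a median of 0.14, and the groups did not overlap in 5, all with SPOCK1 higher: WARS, SARS, HARS, KARS and FARSB. Over all genes tested 49.2% were above 0, and among genes with a mean of at least 50 CPM 59.7% were. So were 13 of 16 tested mitochondrial synthetases and 10 of 12 housekeeping genes. Across the 18 alternative analyses 16 to 19 of the 20 were above 0. The count of 18 is not one of independent observations, since all 20 genes were read in the same libraries: SPOCK1 library 1 was the highest of all 8 in 9 of the 20, and SPOCK1 library 4 in 5.

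WARS, which encodes the tryptophanyl-tRNA synthetase and is also induced by interferon (chromosome 14, 100333788 to 100376805, minus strand), rose 1.23-fold. It had 238, 249.8, 259 and 252 CPM in controls 1 to 4, and 303, 316, 302 and 311 CPM in SPOCK1 libraries 1 to 4. The spread within each group was small next to the distance between them. The mean went from 249.7 ± 8.92 to 308 ± 6.70 CPM (SD, n = 4 per group). On the log2 scale this was 0.30 ± 0.07 (SE, edgeR quasi-likelihood adjusted p = 0.0422). The call stood near the threshold and held in 9 of 18 alternative analyses. It ended when any single control was left out (adjusted p = 0.0827 to 0.125), without SPOCK1 library 2 or 3 (0.19 and 0.103), in libraries 1 and 3 alone (0.422) and with upper-quartile scaling (0.0552). Of the exonic bases of WARS, 4.51% are shared with WDR25 (log2 fold change 0.02 ± 0.11, adjusted p = 0.962) and 6.06% with AL157871.4, which was at 0 CPM, both on the opposite strand.

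SARS, the seryl-tRNA synthetase, had 222, 258, 268 and 268 CPM in controls and 316, 299, 286 and 279 CPM with SPOCK1 (log2 fold change 0.22 ± 0.08, adjusted p = 0.245, edgeR quasi-likelihood test). HARS, the histidyl enzyme, had 178, 175, 187 and 183 CPM against 214, 212, 196 and 199 CPM (0.19 ± 0.07, adjusted p = 0.261). KARS, the lysyl enzyme, had 279, 308, 311 and 319 CPM against 372, 357, 325 and 328 CPM (0.18 ± 0.08, adjusted p = 0.302). In each of these 3 the lowest SPOCK1 library stood only slightly above the highest control. FARSB, the beta subunit of the phenylalanyl enzyme, was at 0.14 ± 0.08, as was the alpha subunit FARSA, whose groups overlapped.

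The remaining synthetases had overlapping groups. DARS, the aspartyl enzyme, had 137, 131, 150.0 and 132 CPM in controls and 204, 155, 165 and 133 CPM with SPOCK1, a log2 fold change of 0.26 ± 0.11 (adjusted p = 0.308) that was 0.13 ± 0.09 without SPOCK1 library 1. RARS, the arginyl enzyme, was at 0.25 ± 0.12 and GARS, the glycyl enzyme, at 0.18 ± 0.07. NARS (asparaginyl) was at 0.15 ± 0.13, TARS (threonyl) at 0.14 ± 0.08 and YARS (tyrosyl) at 0.11 ± 0.07. MARS (methionyl), VARS (valyl), CARS (cysteinyl), AARS (alanyl), LARS (leucyl) and IARS (isoleucyl) lay between 0.03 and 0.06, and QARS (glutaminyl) was at -0.03 ± 0.07. EPRS, which joins the glutamyl and prolyl enzymes in a single protein, was lowest at -0.11 ± 0.10.

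The values of genes with and without the C/EBP-ATF core are set side by side here. Over all genes tested 0.247% rose and 0.798% fell. Of the 14 with TGATGNAA, 0 passed the test, their log2 fold changes ran from -0.31 (ASNS) to 0.19 (CEBPG) with a median of 0.04, and the smallest adjusted p was 0.296. FAM129A, DDIT3 and WARS were among the 24 windowed genes without it, whose median was 0.11. A core outside the windows would not have been found, and with 3 genes called in all the counts are small. In the list of 19 ATF6 and XBP1 genes 12 rose, among them 5 of the 6 with the endoplasmic reticulum stress element. Whether either element bears on these values was not tested.

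The other parts of the same pathways were given by lists of genes that are not members. Of 17 genes of eIF2, its kinases, its exchange factor eIF2B and its upstream sensors, 0 passed in either direction, with a median log2 fold change of 0.07. Of 16 tested mitochondrial synthetases 0 passed (median 0.10). Of 5 genes listed as synthetase complex scaffold and tRNA export 0 passed (median 0.17, all 5 above 0). This list also held TARSL2, a threonyl-tRNA synthetase gene. The median of the list was 0.33 without control 3 and 0.32 without SPOCK1 library 4, and 4 of the 5 were above 0 in libraries 1 and 3 alone. No gene passed among 14 tested genes of serine, glycine, one-carbon and amide metabolism (median -0.01) or among 12 other amino acid transporters (median 0.00).

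Of 26 other tested targets of ATF4 and CHOP, 0 rose and 1 fell, with a median log2 fold change of -0.05. The 1 that fell was KLHL24, a ubiquitin ligase adaptor, with 27.6, 19.9, 25.3 and 20.9 CPM in controls and 17.1, 16.7, 15.3 and 13.0 CPM with SPOCK1 (log2 fold change -0.59 ± 0.13, adjusted p = 0.0277, edgeR quasi-likelihood test). Its groups did not overlap, but the call held in only 11 of 18 alternative analyses, ending without control 1 (adjusted p = 0.107) or 3 (0.0678), without SPOCK1 library 2 (0.0655), 3 (0.0897) or 4 (0.0563), and in either pair of libraries alone (0.216 and 0.11). The ATF6 and XBP1 list had 12 of 19 genes higher and a median of 0.51. The 3 with the smallest p were HSPA5 (0.78 ± 0.08, adjusted p = 3.42e-05), MANF, a secreted protein of the stressed endoplasmic reticulum (0.80 ± 0.08, adjusted p = 5.69e-05), and PDIA4, a disulfide isomerase (0.69 ± 0.07, adjusted p = 6.34e-05). In libraries 1 and 3 alone 0 of the 19 passed, with a median of 0.50. Of 12 housekeeping genes, used here as a reference, 0 passed and the median was 0.08.

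**Figure D3:**
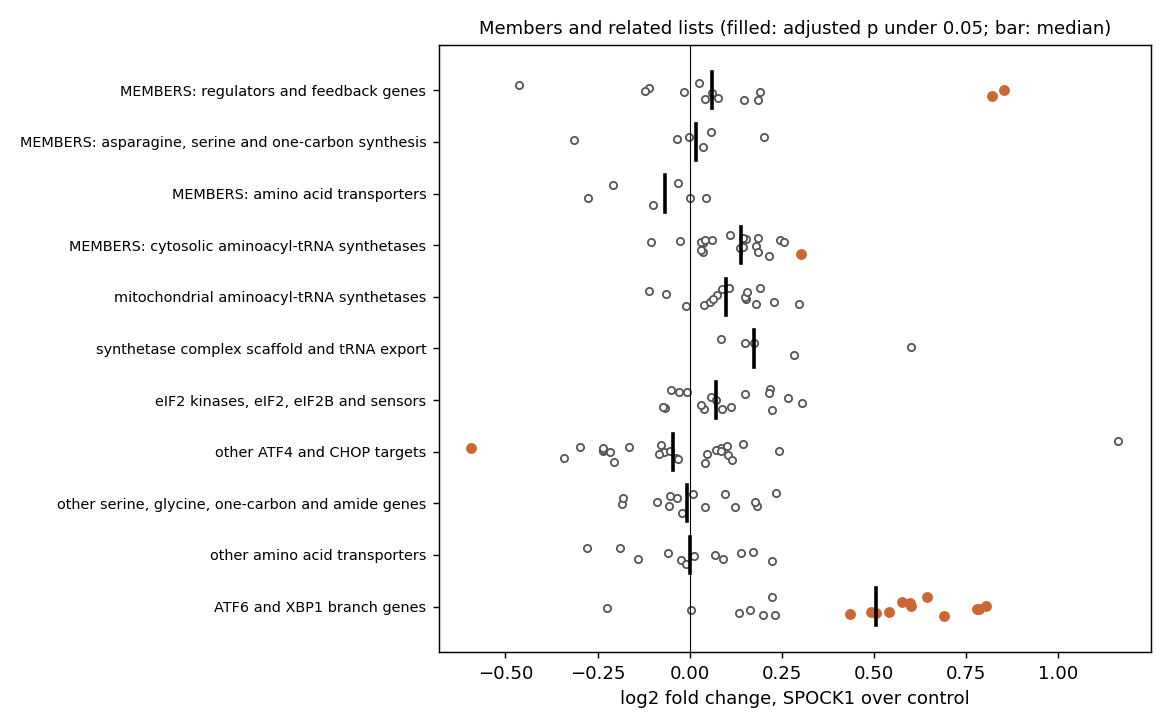
Log2 fold change, SPOCK1 over control (x axis), of each tested gene of 11 lists (rows), with the median as a bar and filled points for an adjusted p under 0.05. The ATF6 and XBP1 list has 12 filled points and a median of 0.51, whereas the medians of the 4 member roles lie between -0.07 and 0.14.

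CPM per kilobase of exonic length in controls compares levels between genes only roughly. The length is the union of all annotated exons, which can exceed that of the transcripts present. On this scale the members spanned from SLC1A5 at 653 to ASNS at 0.734. SLC7A5 followed at 380.3, then PSAT1 (195), ATF4 (188), SHMT2 (171) and SLC3A2 (151). The 20 synthetases lay in the middle, with GARS highest at 89.2 and NARS lowest at 12.2, a 7.29-fold span. Their median of 34.8 was 47.4 times the level of ASNS. ASNS shares 44.6% of its exonic bases with AC079781.5 on the same strand, and how reads matching both were counted is not given. The level of ASNS and this ratio depend on that rule. DDIT3 (5.57) and FAM129A (1.04) were near the lower end, beside SESN2 (5.33), ATF3 (3.34), VLDLR (2.84) and SLC7A11 (1.13). Of 44 neighbouring pairs in this order, 35 had ranges over the control libraries that overlapped. The 2 genes of a pair were not compared within each library, so this does not show that their levels were equal.

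**Figure D4:**
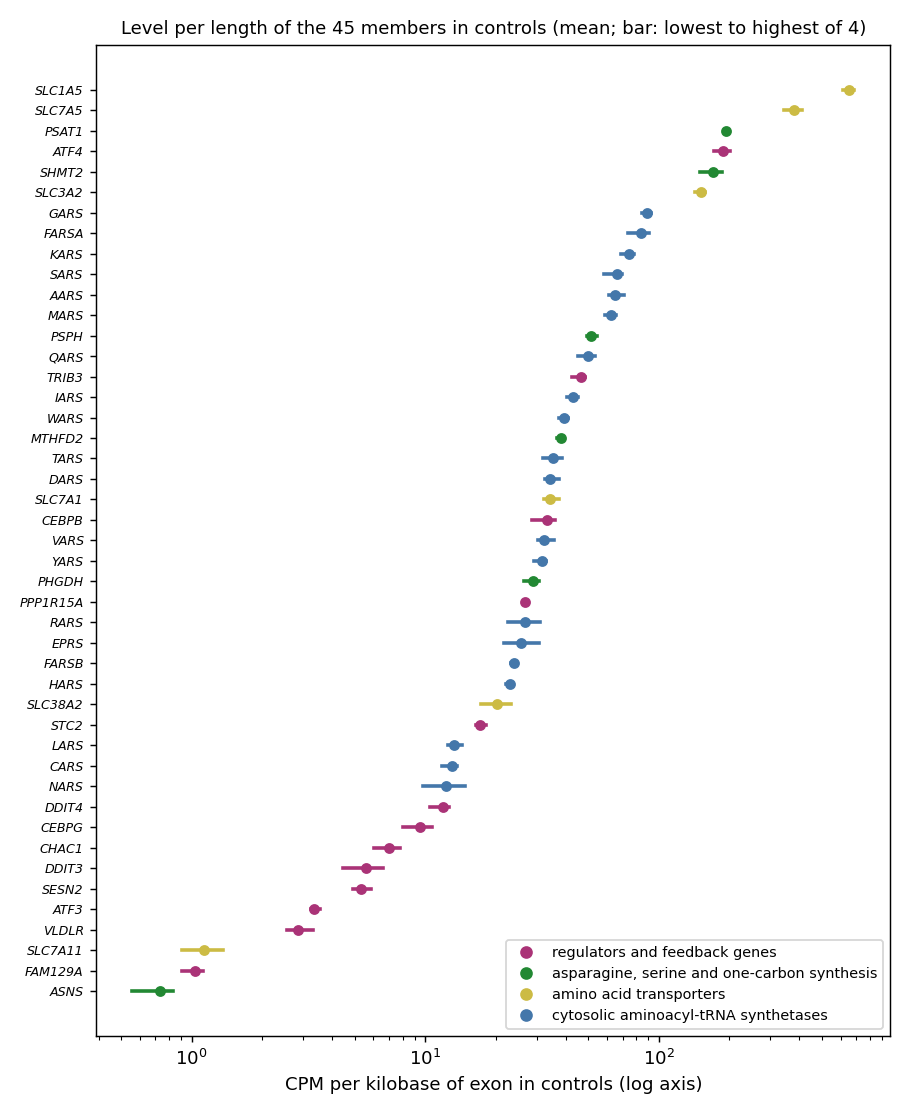
Level of each of the 45 genes in the 4 control libraries, in CPM per kilobase of exonic length (log axis), with the mean as a point and a bar from the lowest to the highest library. SLC1A5 is highest at 653 and ASNS lowest at 0.734, and the synthetases lie between 12.2 and 89.2. The level of ASNS depends on how reads shared with AC079781.5 were counted, which is not given.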

How the data were processed

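Whole-number read counts per gene for 8 libraries were deposited by the authors, without normalization. Per the submitters' processing notes, the tools included CASAVA, the aligner HISAT2 (2.0.5) and, for counting, featureCounts (1.5.0-p3). Which build, strand option and rule for multi-mapped reads were used is not stated in any source read here. The deposited gene coordinates were identical to GENCODE release 29 (GRCh38), and those printed are the deposited ones. Library titles gave the 2 groups of 4.

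The test was run in R 4.3.3 with edgeR 4.0.16: filterByExpr (minimum count 10, minimum total 15), TMM factors, glmQLFit and glmQLFTest without covariates, and Benjamini-Hochberg adjustment over all genes tested, with a threshold of 0.05. Standard errors came from the F statistic. CPM used TMM-scaled library sizes, and levels between genes used the union of exonic bases. Depth was 35643585 to 42812951 counts per library, and the precision of a fold change is given by its standard error over 4 libraries a group. The script was tested on simulated data with known changes.

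The named genes were every member, SPOCK1, genes overlapping a called member and, per list of other genes, at most 3 past the threshold with the smallest p. Outside this rule, the colorectal epithelial markers, the transcripts AC079781.5 and DDIT4-AS1 and the genes PDIA6, NUPR1, EIF2B3, TARSL2, EEF1E1 and EEF1E1-BLOC1S5 were named after their values were seen. The members and lists were chosen with earlier results of these data known. Alternatives were DESeq2 1.42.0, limma-voom (limma 3.58.1), scaling by RLE or by upper quartile, filters at 1 count in total or at a mean of 1 CPM, a block for the replicate number, offsets on GC content and exonic length (natural splines, 5 degrees of freedom), libraries 1 and 3 alone, libraries 2 and 4 alone, and each library left out in turn. Promoter windows came from RefSeq (GRCh38.p14) and were matched by symbol, 19 members through a newer one. PSPH, SHMT2, SLC7A11, YARS, LARS, VARS and DARS had no window.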

Additional observations from a re-analysis of the deposited data

Results flagged for a closer look

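In 5 of 90 sets of 4 libraries (45 genes in 2 groups), 1 library stood far from the other 3, with a gap that exceeded Dixon's critical share of the whole range. Chance flags about 1 set in 20, which here would be 4.5 sets. DDIT4 was at 21.5 CPM in control 1, below 25.3 to 26.0 CPM in the other controls. SLC7A11 was at 13.5 CPM in SPOCK1 library 3, above 9.87 to 10.0 CPM in the others, and SLC38A2 was at 127 CPM in the same library, above 103 to 106 CPM. GARS was at 384 CPM in SPOCK1 library 4, below 427 to 434 CPM in the others, and IARS was at 296 CPM in that library, below 329.5 to 335 CPM.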

How the results depend on the processing

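For 46 genes, the 45 members and KLHL24, 828 log2 fold changes were computed over 18 alternatives. Of these, 775 kept their direction and their side of the threshold, 21 lost the call, 7 gained one and 25 reversed. KLHL24, which is not a member, lost its call in 7 of the 18 alternatives. Directions were read at 2 decimals, so a change from or to a value that rounds to 0.00 was not counted as reversed. No reversed value passed the threshold, and 39 of the 45 members passed in no analysis. The cause of these shifts was not tested. The number of members called higher (3) was 0 in libraries 1 and 3 alone, where each group has 2 libraries, and 1 to 3 with 1 library left out, the lowest without control 1 or control 2. Members called lower (0) were 1 with DESeq2, 1 with no filter beyond 1 count, 2 with GC and length offsets and 0 to 1 with 1 library left out. Over all genes, higher calls (39) were 105 with DESeq2, 120 without the filter, 265 with the offsets, 1 in libraries 1 and 3 alone and 24 to 66 with 1 library left out. Lower calls (126) were 273, 279, 293, 7 and 63 to 171 in the same order. The median of the regulators (0.06) was 0.00253 in libraries 1 and 3 alone, 0.10 in libraries 2 and 4 alone and 0.023 to 0.089 with 1 library left out. Other list medians also moved with 1 library left out: -0.14 to -0.019 for the transporters, -0.015 to 0.048 for the synthesis enzymes and 0.14 to 0.33 for the synthetase scaffold and tRNA export.

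With the replicate number as a block, 31 genes rose and 84 fell, 2 members were higher and 1 lower: WARS lost its call (adjusted p = 0.0777) and DDIT4 gained one (adjusted p = 0.0420). Deviations of same-numbered libraries correlated at -0.06 to 0.08 and those of other pairs at -0.14 to 0.14, and 1 of 4 controls correlated best with its own number, so the numbers were not taken as pairs.

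Reversed log2 fold changes with GC and length offsets were ATF3 -0.017, PSAT1 -0.024, SHMT2 0.014, SLC3A2 0.020 and QARS 0.0056. PHGDH and SLC7A11, both at -0.00 in the main fit, were 0.059 and 0.052 with the offsets and were not counted as reversed. In libraries 1 and 3 alone the reversed values were PPP1R15A -0.0098, STC2 -0.038, SHMT2 0.040 and SLC7A1 -0.11. In libraries 2 and 4 alone they were VLDLR 0.053, PSPH -0.0055, CARS -0.0055 and LARS -0.022. With 1 library left out the ranges crossed 0 for ATF3 (-0.014 to 0.063), VLDLR (-0.068 to 0.064), SHMT2 (-0.094 to 0.0060), SLC7A1 (-0.033 to 0.125), CARS (-0.0086 to 0.075), LARS (-0.011 to 0.0986), VARS (-0.036 to 0.089) and QARS (-0.070 to 0.0066).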

Other observations

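A few genes outside the 45 were named after their values were seen. NUPR1, a small chromatin-associated stress protein, had 0.50, 0.46, 0.67 and 0.98 CPM in controls 1 to 4 and 2.57, 1.20, 0.99 and 1.11 CPM in SPOCK1 libraries 1 to 4, a log2 fold change of 1.16 ± 0.36 that did not pass (adjusted p = 0.16, edgeR quasi-likelihood test). Its groups did not overlap, by a small margin, on 17 to 40 counts per control library, and without SPOCK1 library 1 the log2 fold change was 0.75 ± 0.36. EIF2B3, a subunit of the exchange factor that phosphorylated eIF2 inhibits, had 23.0, 30.2, 27.0 and 29.2 CPM in controls and 36.9, 33.2, 32.8 and 32.1 CPM with SPOCK1 (log2 fold change 0.30 ± 0.10, adjusted p = 0.197, edgeR quasi-likelihood test). EEF1E1, a scaffold protein of the multi-synthetase complex, had overlapping groups and a log2 fold change of 0.60 ± 0.25 (adjusted p = 0.31, edgeR quasi-likelihood test), with SPOCK1 library 1 highest at 16.1 CPM. It was 0.29 ± 0.21 without that library, and EEF1E1-BLOC1S5 shares 18.7% of its exonic bases on the same strand.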
